A study of Mus musculus with 3 samples.

Results

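The 7 genes described here, Egr1, Egr2, Egr3, Nr4a1, Nab2, Cd5 and Cd69, report signalling through antigen receptors in lymphocytes. They were taken by name from the 27734 genes listed in all 3 deposited count matrices, and all 7 were present in each matrix. Signals from the pre-T cell receptor or the γδ T cell receptor (TCR) reach the nucleus through calcium and the ERK kinase pathway. Egr1, Egr2 and Egr3 encode zinc finger transcription factors that are switched on rapidly by such a signal, and Nab2 encodes a co-repressor that binds EGR proteins. Nr4a1 encodes the orphan nuclear receptor NUR77, which is induced by TCR engagement. Cd69 encodes an early activation lectin that holds cells in the tissue, and Cd5 encodes an inhibitory receptor whose surface level in T cells is known to follow the strength of TCR signalling. In the thymus these genes are known as readouts of β-selection, of positive selection and of the strong signals that accompany entry into the γδ lineage.

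Each library was made from the pooled thymi of 4 C57BL/6 mice, labelled as 6 weeks old and with no genetic change or treatment named, by droplet single-cell RNA sequencing. The first run held total CD4-CD8- double negative (DN) thymocytes with TCRγδ+ thymocytes, the second held only the early DN1 and DN2 stages, and the third held DN1 with DN2, DN3 and TCRγδ+ cells that were sorted apart and remixed. All 3 sorts excluded cells that stained for CD4, CD8, B220, CD11b, CD11c, NK1.1 or TCRβ. There was 1 library per sort, so the runs are different mixtures and not replicates of a condition, and a difference in level between runs cannot be told apart from a difference in sort, reagent kit or day. Comparisons were therefore made between kinds of cells within each run, and were tested across the 3 runs.

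After the filter on genes and mitochondrial RNA, 5516, 8852 and 7511 cells remained in runs 1, 2 and 3, which is 21879 of 23283 deposited barcodes. The median depth was 5989.5, 4844 and 8507 unique molecular identifiers (UMIs, which count captured RNA molecules) per cell. Runs 1 and 2 shared 72 cell barcodes, runs 1 and 3 shared 3, and runs 2 and 3 shared 0. The first 2 matrices list 28692 genes and the third lists 32285, so the gene lists differed.

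Each cell was placed in 1 of 9 gates by its own transcripts. Il2ra encodes CD25, which marks DN2 and DN3 cells, and Ptcra encodes the pre-TCR α chain. The study used Ptcra to identify DN3 cells and, with other genes, to separate the later DN2b cells from DN2a cells. The gates on Il2ra and Ptcra gave Il2ra+Ptcra- cells (914, 2142 and 1897 in runs 1, 2 and 3), Il2ra+Ptcra+ cells (907, 1080 and 1759) and Ptcra+Il2ra- cells (651, 226 and 159). Cells with a UMI of Cd8b1, a CD8 chain that appears after β-selection, numbered 1330, 60 and 116. Cells with at least 3 UMIs and 1000 CPM of Trdc (the UMIs of a gene scaled to the cell's total), the TCRδ constant region, were called Trdc-high and numbered 645, 1519 and 1011 without Ptcra UMIs and 229, 284 and 75 with them. Cells with at least 3 UMIs of Trac, the TCRα constant region, numbered 27, 1958 and 1018. The remaining cells carried neither Il2ra nor Ptcra and numbered 808, 1572 and 1104, beside 5, 11 and 372 cells with at least 2 B-lineage markers.

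The marker genes followed these gates, with exceptions that touch the results. Sox13, a γδ T cell transcription factor, was at 58.2, 58.5 and 239 CPM (here the UMIs of all cells of the gate, scaled to their total) in Trdc-high cells of runs 1, 2 and 3 and at 12.5, 8.59 and 18.8 CPM in Il2ra+Ptcra+ cells. Rag1, a recombinase gene of DN2b and DN3 cells, was at 115, 81.4 and 290 CPM in Il2ra+Ptcra+ cells and at 19, 9.2 and 6.68 CPM in Trdc-high cells. Run 2 was sorted without TCRγδ+ cells, yet 17.2% of its cells were Trdc-high, and it held most of the Trac+ cells although TCRβ+ cells were excluded. Trac+ cells carried Nkg7, a cytotoxic granule gene, at 105, 1310 and 847 CPM, and Klrb1c, which encodes NK1.1, at 0, 290 and 179 CPM. The cells with neither Il2ra nor Ptcra were mixed. In them the 5 myeloid or dendritic markers Lyz2, Csf1r, Itgax, Fcer1g and Tyrobp summed to 19.9, 264 and 491 CPM, with 4, 5 and 5 of the 5 detected.

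The strongest pattern was in Trdc-high cells set against Il2ra+Ptcra+ cells, the gate with UMIs of both Il2ra and Ptcra. All 7 genes were higher in Trdc-high cells, where 11.7% of the 12502 genes tested were called higher and 19.2% were called in either direction (edgeR's quasi-likelihood test on summed counts with the run as a block, Benjamini-Hochberg adjusted p under 0.05). Their median log2 fold change was 2.68, against -0.02 over all genes tested. Each SE given with edgeR comes from a fit over the 3 runs with variation pooled over gates. It is not the spread of the 3 run values.

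Cd5 had 44.2, 20.2 and 88.7 CPM in Trdc-high cells of runs 1, 2 and 3 and 8.6, 4.77 and 6.12 CPM in Il2ra+Ptcra+ cells. The Trdc-high level was 5.14, 4.22 and 14.5 times as high, and every Trdc-high value lay above every Il2ra+Ptcra+ value. The log2 fold change of Cd5 was 2.88 ± 0.30 (SE, 3 runs, edgeR adjusted p = 1e-06), and Cd5 was called in 13 of 13 alternative analyses. After each cell was thinned to 2000 UMIs, 7.13%, 4.28% and 14.4% of Trdc-high cells carried a Cd5 UMI, against 1.1%, 1.02% and 0.797% of Il2ra+Ptcra+ cells. No gate is known to lack Cd5 altogether, so the Il2ra+Ptcra+ share is an upper limit for free RNA if it is spread evenly over droplets. The gates had median depths of 3647, 4366 and 7085 UMIs in Trdc-high cells and 4776, 6865 and 8430 UMIs in Il2ra+Ptcra+ cells before thinning.

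Nr4a1 had 28.9, 27.2 and 79.4 CPM in Trdc-high cells and 4.21, 6.56 and 10.1 CPM in Il2ra+Ptcra+ cells. Every Trdc-high value of Nr4a1 lay above every Il2ra+Ptcra+ value. The log2 fold change of Nr4a1 was 2.59 ± 0.36 (SE, 3 runs, edgeR adjusted p = 2.8e-05). Nab2, the EGR co-repressor, had 34.7, 16.5 and 19.8 CPM against 5.44, 2.74 and 2.01 CPM, which again did not overlap. Nab2 had a log2 fold change of 2.84 ± 0.43 (SE, 3 runs, edgeR adjusted p = 6.6e-05). Nr4a1 was called in 12 of 13 alternatives and Nab2 in 13 of 13.

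Of the 3 Egr genes, Egr2 differed in all 3 runs at a low level. Egr2 had 17, 18 and 43 UMIs in Trdc-high cells, or 5.78, 2.27 and 5.13 CPM, against 6, 4 and 10 UMIs in Il2ra+Ptcra+ cells, or 1.05, 0.477 and 0.528 CPM. Egr2 had a log2 fold change of 2.68 ± 0.42 (SE, 3 runs, edgeR adjusted p = 8.2e-05). Egr1 was at a higher level but moved least, with 14.6, 34.2 and 41.9 CPM against 6.84, 19.7 and 25.3 CPM. Its Trdc-high cells were above the Il2ra+Ptcra+ cells of the same run in all 3 runs, and the ranges over the runs overlapped. The log2 fold change of Egr1 was 0.78 ± 0.23 (SE, 3 runs, edgeR adjusted p = 0.022), and Egr1 was called in 8 of 13 alternatives.

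Egr3 could be compared in run 3 alone. It had 0 UMIs among the 5516 cells of run 1, which allows a share of up to 0.0544% of cells with a UMI, and 3 UMIs in the whole of run 2. Run 3 held 435 UMIs of Egr3, of which 67 were in Trdc-high cells (8 CPM) and 15 in Il2ra+Ptcra+ cells (0.792 CPM). The fitted log2 fold change of 3.20 ± 0.55 (SE, edgeR adjusted p = 0.00096) thus rested on 1 library, and DESeq2 did not call it. The first 2 matrices were those with the shorter gene list, and the part of this in the Egr3 counts was not tested.

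Cd69 changed less than Cd5 on the log scale. Its levels were 37.1, 104 and 289 CPM in Trdc-high cells and 15.4, 51.4 and 107 CPM in Il2ra+Ptcra+ cells. Within each run the Trdc-high cells were above, and over the runs the ranges overlapped. The log2 fold change of Cd69 was 1.20 ± 0.20 (SE, 3 runs, edgeR adjusted p = 0.00024). With run 3 left out, 213 genes were called and 3 of the 7 stayed among them, namely Nr4a1, Nab2 and Cd5. With no run block, 80 genes were called and 3 of the 7 were among them, namely Egr2, Nab2 and Cd5.

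**Figure D1:**
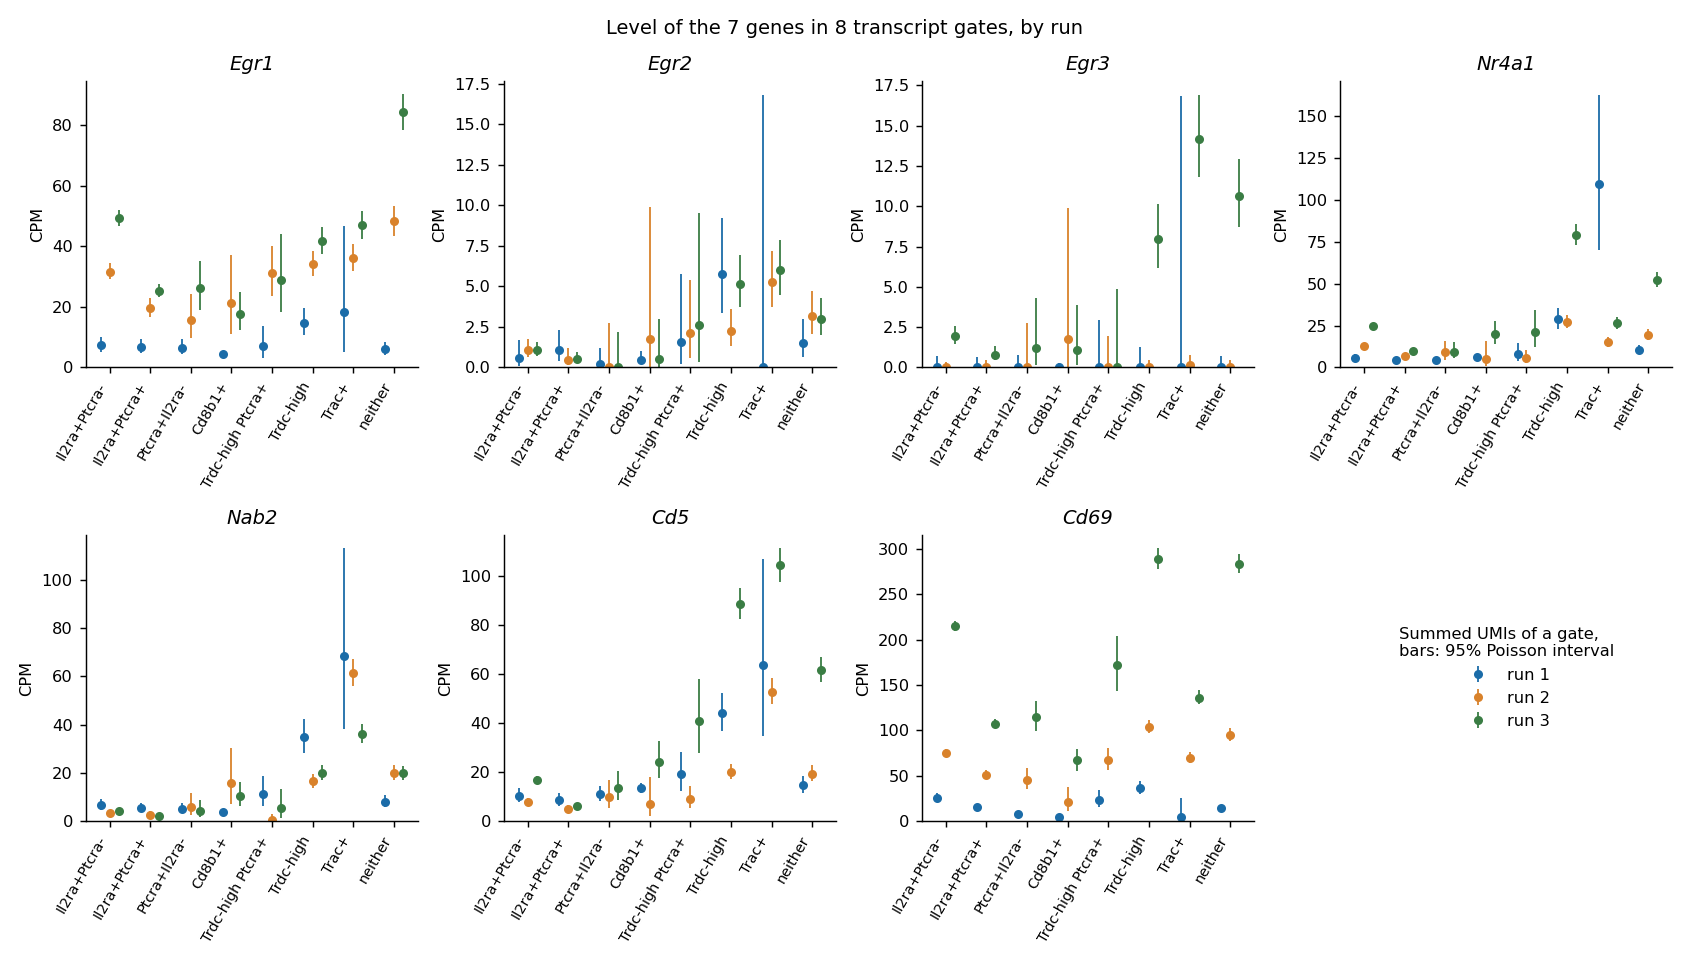
Level of each of the 7 genes (CPM, vertical axis) in 8 gates (horizontal axis), with 1 point per run and 95% Poisson intervals. Cd5 in Trdc-high cells sits at 44.2, 20.2 and 88.7 CPM, above the 8.6, 4.77 and 6.12 CPM of Il2ra+Ptcra+ cells, while Egr3 is above 2 CPM in run 3 alone.

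Other genes known to follow receptor signals were compared in the same 2 gates. Of 24 such genes, 16 were higher and 1 was lower in Trdc-high cells, with a median log2 fold change of 0.99. The list was chosen with earlier results of these data known, and it holds Id3, which the study used to identify γδ thymocytes. The count therefore describes the list and carries no test. Tnfrsf9, which encodes the costimulatory receptor 4-1BB, had a log2 fold change of 3.72 ± 0.43, the chemokine gene Xcl1 3.59 ± 0.85, the transcription factor gene Irf4 2.49 ± 0.56 and the Cd5 relative Cd6 2.14 ± 0.24 (SE, 3 runs, edgeR adjusted p = 3.1e-06, 0.0044, 0.0029 and 2.4e-06). The gene that was lower was Myc. Of 14 immediate-early and stress genes, which also respond to tissue handling, 5 were higher and 0 were lower, with a median log2 fold change of 0.41. Zfp36, which encodes an mRNA decay factor, had 1.70 ± 0.29 and Fos 0.95 ± 0.21 (SE, 3 runs, edgeR adjusted p = 0.00023 and 0.003). The 4 markers of NK or NK-receptor T cells summed to 288, 433 and 386 CPM in Trdc-high cells and 119, 227 and 153 CPM in Il2ra+Ptcra+ cells, and the part of such cells in the Cd5 or Nr4a1 difference was not tested.

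The promoters of Egr2 and Nr4a1 are shown because they hold motifs of factors that act in this pathway. Both members, like the others, were higher in Trdc-high cells than in Il2ra+Ptcra+ cells. The stretches are from RefSeq on the mouse build GRCm38.p6, and the promoters of Egr2, Nr4a1, Nab2 and Cd5 were searched. The Egr2 stretch, chr10:67537787-67537816 on the plus strand, has in capitals a CArG box, the site read by serum response factor, whose first base is 72 bases before one of 5 RefSeq starts of the gene. The Nr4a1 stretch, chr15:101266596-101266845 on the plus strand, has in capitals a match to the EGR motif GCGNGGGCG read on the other strand. The match starts 60 bases before the 1 RefSeq start searched for this gene. Another annotation of GRCm38 begins the gene upstream of this stretch, at chr15:101254269.
Egr2: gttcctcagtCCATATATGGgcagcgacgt
Nr4a1: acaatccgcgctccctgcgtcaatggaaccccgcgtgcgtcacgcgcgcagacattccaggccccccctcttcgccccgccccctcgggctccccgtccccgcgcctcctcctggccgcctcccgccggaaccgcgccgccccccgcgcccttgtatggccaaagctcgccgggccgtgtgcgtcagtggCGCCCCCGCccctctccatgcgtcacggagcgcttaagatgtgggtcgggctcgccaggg
Both strands were searched in the 250 bases before each start. A CArG box was present in 1.47% of 32851 mouse promoters of that length and GCGNGGGCG in 4.70%. The core cyclic AMP response motif TGACG, present in 17.8% of promoters, occurred 4 times in the Nr4a1 stretch and overlapped the capitals at none of them. The Nab2 and Cd5 windows held neither these motifs nor AAAGGTCA, the monomer site bound by NUR77, which 1.34% of promoters held. These matches are descriptions of letters and no binding was measured.

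Among Trdc-high cells, those without a UMI of Cd24a, a surface antigen lost as γδ thymocytes mature, had more Cd5 and Nab2. Run 2 was sorted for DN1 and DN2 cells without TCRγδ+ cells, and the study divided DN1 cells by CD24 and other markers. Maturity and DN1 subset cannot be told apart in that run. Cd5 had 31.6, 13.8 and 82.9 CPM in the 482, 1085 and 552 Cd24a+ cells of runs 1, 2 and 3, and 93.1, 49.2 and 98 CPM in the 163, 434 and 459 Cd24a- cells. The Cd24a- cells were above in each run, by the least in run 3. Nab2 had 26.5, 12 and 18.6 CPM in Cd24a+ cells and 66.5, 37.2 and 21.8 CPM in Cd24a- cells, the same order in each run. Both genes were called lower in Cd24a+ cells, with log2 fold changes of -1.09 ± 0.29 for Cd5 and -1.06 ± 0.28 for Nab2 (SE, 3 runs, edgeR adjusted p = 0.045 and 0.041). Of the 9528 genes tested, 6.77% were called lower and 13.6% in either direction. These 2 calls were lost without run 1, without cells of high doublet score, with a Trdc gate of 2000 CPM and without the run block.

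The other members were not called between Cd24a+ and Cd24a- cells. Cd69 was at 31.2, 93.1 and 288 CPM in Cd24a+ cells and 59.8, 153 and 291 CPM in Cd24a- cells (log2 fold change -0.50 ± 0.18, SE, 3 runs, edgeR adjusted p = 0.099). Nr4a1 was at 19.2, 24.9 and 83.5 CPM against 66.5, 37.9 and 72.7 CPM, so that the order turned in run 3 (log2 fold change -0.53 ± 0.31, SE, 3 runs, edgeR adjusted p = 0.27). Egr1 and Egr2 had log2 fold changes of -0.26 ± 0.24 and -0.71 ± 0.47 (SE, 3 runs, edgeR adjusted p = 0.52 and 0.35), and Egr3 had too few counts to test. Of 22 other receptor-signal genes tested, 6 were lower in Cd24a+ cells, among them Xcl1, Cd6 and Id3, an inhibitor of E proteins induced downstream of EGR factors, and 1 was higher, Myc. Id3 had a log2 fold change of -1.24 ± 0.14 and Myc of 1.21 ± 0.19 (SE, 3 runs, edgeR adjusted p = 0.0049 and 0.01). Of 12 immediate-early and stress genes, 5 were lower in Cd24a+ cells, with Zfp36 at -1.19 ± 0.22 (SE, 3 runs, edgeR adjusted p = 0.015). Sox13 was at 40.6, 35.6 and 207 CPM in Cd24a+ cells and 126, 163 and 291 CPM in Cd24a- cells. Median depth moved with the split, at 3929.5, 5326 and 8134.5 UMIs in Cd24a+ cells and 3069, 2899.5 and 6227 UMIs in Cd24a- cells, and its part in the result was not tested.

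**Figure D2:**
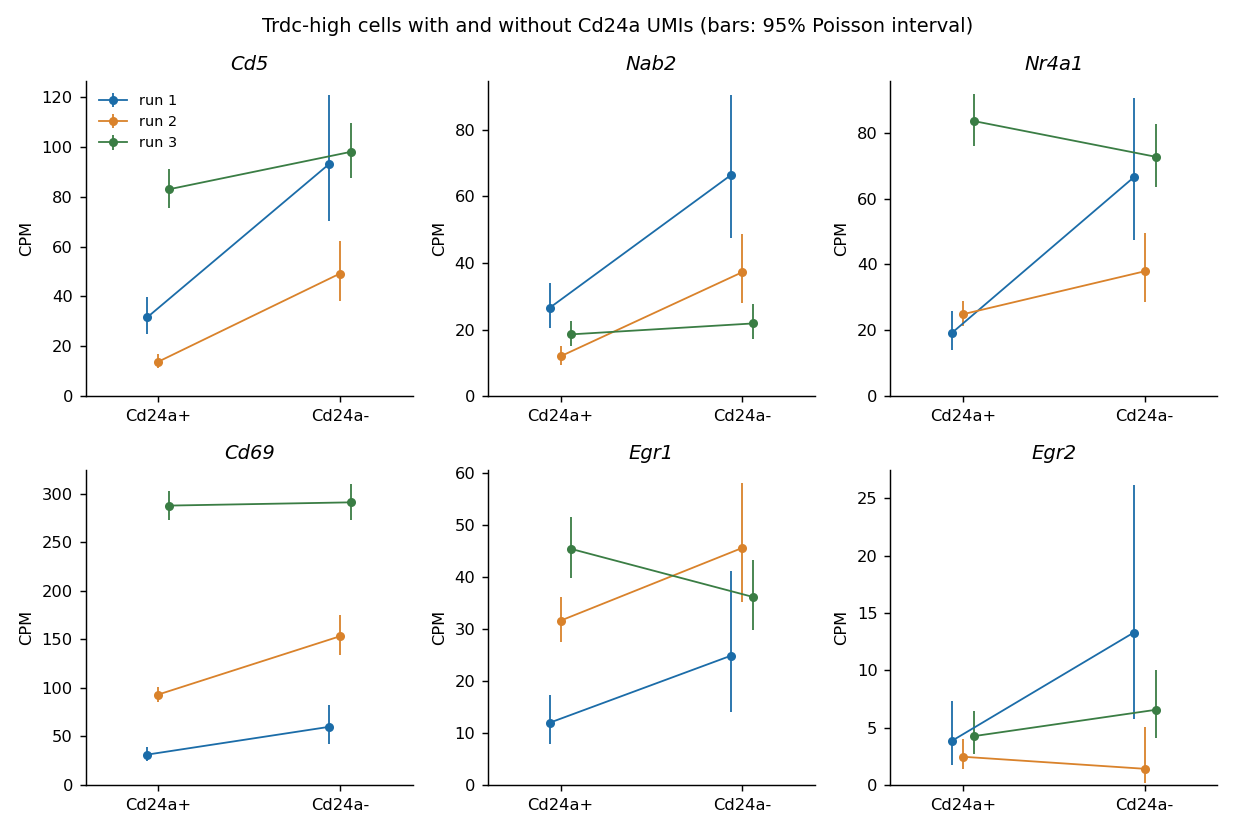
Level (CPM, vertical axis) of 6 of the genes in Trdc-high cells with and without Cd24a UMIs, joined by run, with 95% Poisson intervals. Cd5 and Nab2 are higher in Cd24a- cells in all 3 runs, while Nr4a1 goes from 83.5 to 72.7 CPM in run 3.

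Trdc-high cells that still carried Ptcra UMIs lay between the 2 gates for Cd5. Cd5 was at 19.1, 8.95 and 40.9 CPM in them, above the Il2ra+Ptcra+ cells of every run and below the other Trdc-high cells of every run. Its log2 fold change against Il2ra+Ptcra+ cells was 1.67 ± 0.41 (SE, 3 runs, edgeR adjusted p = 0.33). No gene was called in this comparison (0% of 12502), although 866 genes, of which 2 were members (Egr2 and Cd5), had an unadjusted p under 0.05. DESeq2 called 15 genes, with Cd5 the only member among them. Nab2 was at 11.1, 0.527 and 5.28 CPM in these cells, below the Il2ra+Ptcra+ level of the same run in run 2 and above it in runs 1 and 3.

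Against cells with neither Il2ra nor Ptcra, the Trdc-high cells gave no member call, where 5.54% of the 12502 genes were called (693 by edgeR and 494 by DESeq2). At an unadjusted p under 0.05 there were 2319 of the 12502 genes, of which 3 were members (Egr1, Nr4a1 and Cd5). Egr1 was at 6.05, 48.2 and 84.3 CPM in cells with neither gene, so that Trdc-high cells were 2.42, 0.708 and 0.497 times as high and the order turned between runs. The log2 fold change of Egr1 was -0.48 ± 0.22 (SE, 3 runs, edgeR adjusted p = 0.24). Nr4a1 was at 10.4, 19.4 and 52.3 CPM in cells with neither gene and was higher in Trdc-high cells in 3 of 3 runs (log2 fold change 0.70 ± 0.32, SE, 3 runs, edgeR adjusted p = 0.24). Cd5 was at 14.7, 19.4 and 61.7 CPM in them and was also higher in Trdc-high cells in 3 of 3 runs (log2 fold change 0.58 ± 0.26, SE, 3 runs, edgeR adjusted p = 0.21). Of the other receptor-signal genes, 4 of 24 were higher in Trdc-high cells (Id3, Nr4a2, Ikzf2 and Cd27), and of the immediate-early genes 2 of 14 were lower (Atf3 and Ier3). Id3 had a log2 fold change of 1.04 ± 0.23 and Cd27, a TNF receptor family member of γδ thymocytes, of 0.76 ± 0.13 (SE, 3 runs, edgeR adjusted p = 0.0068 and 0.00049).

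The cells with neither gene were mixed, and the part of their make-up in these values was not tested. Among those with no Trdc or Trac UMI but with a UMI of Kit, Flt3 or Cd34, which mark early progenitors, Egr1 was at 123 CPM in the 89 cells of run 2 and 284 CPM in the 79 cells of run 3, and Cd5 was at 5.74 and 16.1 CPM. Cd69 was at 217 and 740 CPM in the same cells. Run 1 held 7 such cells, with 0 UMIs of Egr1. Among those with Tyrobp and Fcer1g but without NK receptor UMIs, Egr1 was at 103 CPM in 27 cells of run 2 and 367 CPM in 24 cells of run 3. In runs 2 and 3, Egr1 and Cd69 were thus higher, and Cd5 lower, in the progenitor-marked cells than in the gate as a whole. Without cells that had a Trdc or Trac UMI, the gate had Egr1 at 76.5 and 168 CPM and Cd69 at 132 and 479 CPM. Its Cd5 was then at 11.8 and 27.5 CPM, with Poisson intervals that overlapped those of the progenitor-marked cells. Of the cells so kept in runs 2 and 3, 100 and 114 had a UMI of the NK receptor genes Klrb1c or Klrd1. They had Egr1 at 68.1 and 82.9 CPM and Cd5 at 8.52 and 42.8 CPM. When cells with a Trdc or Trac UMI were left out of this gate, 1085 genes were called. Among them Egr1 was lower and Cd5 higher in Trdc-high cells, with log2 fold changes of -1.39 and 1.48. In run 1 Egr1 went the other way, at 3.88 CPM in the 203 cells so kept and 14.6 CPM in Trdc-high cells. Cd5 kept its direction there, at 7.76 against 44.2 CPM. The choice to leave cells out of this gate was made after the data were seen.

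In Trac+ cells Cd5, Nab2 and Egr2 were higher than in cells with neither Il2ra nor Ptcra. These were 3 of 7 members, where 10.2% of the 12502 genes were called higher and 23.2% in either direction. Cd5 was at 63.9, 52.8 and 104 CPM in Trac+ cells, above the 14.7, 19.4 and 61.7 CPM of the reference gate in each run (log2 fold change 1.43 ± 0.27, SE, 3 runs, edgeR adjusted p = 0.0009). Nab2 was at 68.5, 61.4 and 36.1 CPM against 7.94, 20 and 19.8 CPM, with no overlap (log2 fold change 1.74 ± 0.36, SE, 3 runs, edgeR adjusted p = 0.002). Trac+ cells ranked first of the gates for Cd5 and Nab2 in all 3 runs, although in run 1 their intervals overlapped those of Trdc-high cells. Egr2 was at 5.25 and 6 CPM in Trac+ cells of runs 2 and 3 against 3.2 and 3 CPM, and had 0 UMIs in the 27 Trac+ cells of run 1 (log2 fold change 1.12 ± 0.35, SE, 3 runs, edgeR adjusted p = 0.025). The Egr2 call was kept in 6 of 13 alternatives and lost with DESeq2, without run 2 and without run 3, among others, while Cd5 and Nab2 were each called in 11 of 13.

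The other 4 members were not called in Trac+ cells. Egr1 and Nr4a1 were higher in Trac+ cells in run 1 and lower in runs 2 and 3. Nr4a1 was at 110, 14.9 and 26.5 CPM in Trac+ cells, the first value from 24 UMIs in 27 cells, against 10.4, 19.4 and 52.3 CPM (log2 fold change -0.08 ± 0.38, SE, 3 runs, edgeR adjusted p = 0.92). Cd69 was lower in Trac+ cells in 3 of 3 runs, at 4.57, 70.1 and 136 CPM against 14, 95.3 and 284 CPM (log2 fold change -0.46 ± 0.21, SE, 3 runs, edgeR adjusted p = 0.12). Without run 1, 2808 genes were called, with 6 members among them. Egr1 was then at -0.52, Nr4a1 at -0.60 and Cd69 at -0.64 on the log2 scale, all lower in Trac+ cells. Without run 2, 161 genes were called, with 0 members among them. Of the other receptor-signal genes, 6 of 24 were higher in Trac+ cells, among them Itm2a at 1.71 ± 0.32, Cd6 at 1.42 ± 0.22 and the costimulatory receptor gene Cd28 at 1.35 ± 0.23 (SE, 3 runs, edgeR adjusted p = 0.00097, 0.00017 and 0.00042). Of the immediate-early genes, 3 of 14 were higher (Dusp1, Junb and Jund) and 1 was lower (Ier3). The NK or NK-receptor T cell markers summed to 132, 2291 and 1280 CPM in Trac+ cells and 90.9, 887 and 732 CPM in the reference gate, and the part of such cells in these results was not tested.

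**Figure D3:**
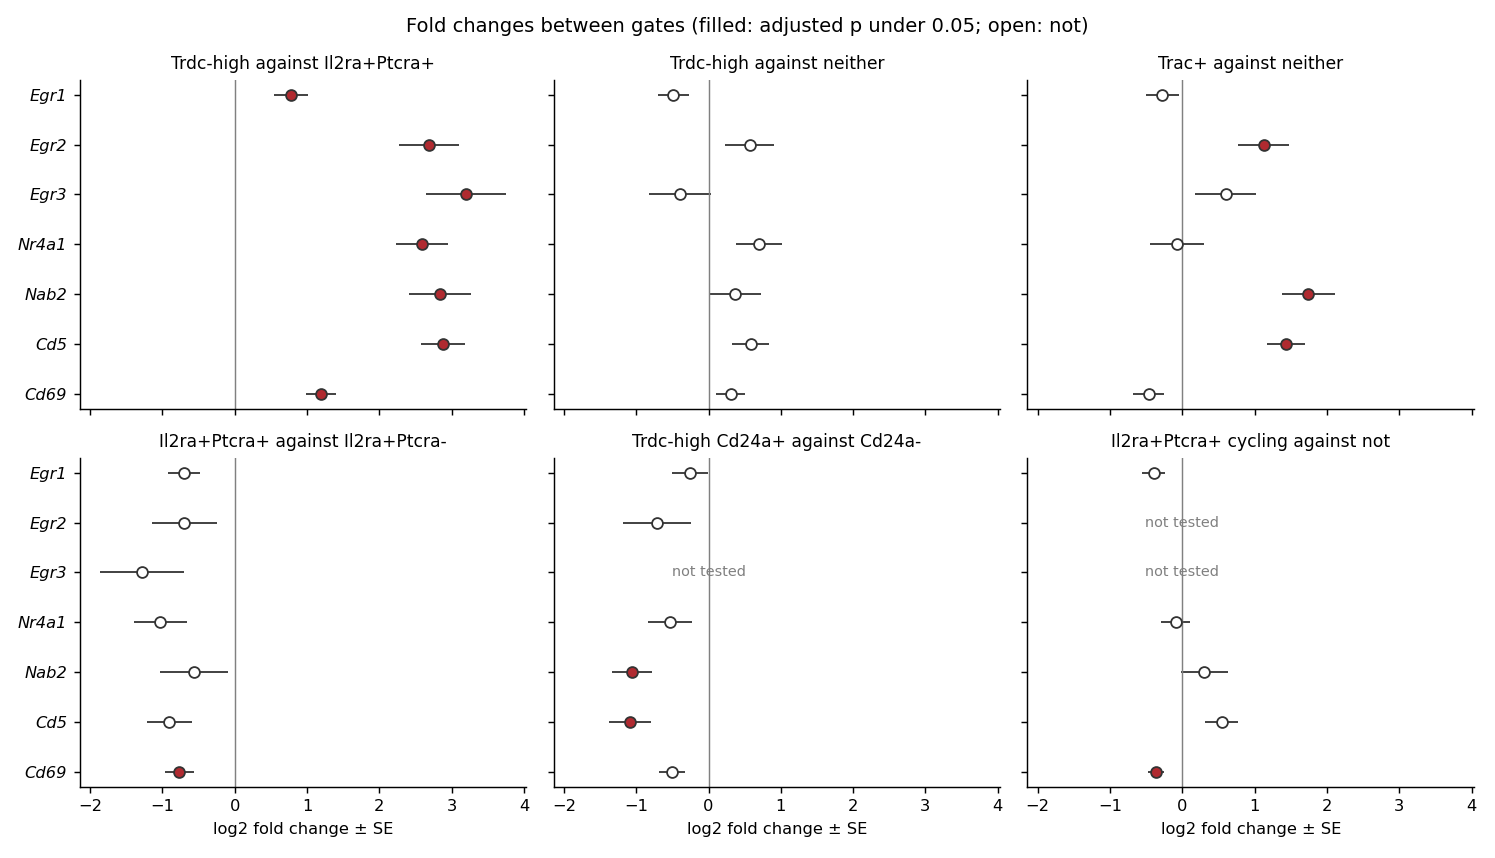
Log2 fold change (horizontal axis) of each gene with its standard error in 6 comparisons, from summed counts over the 3 runs. Filled points passed an adjusted p of 0.05, and all 7 do so in Trdc-high cells against Il2ra+Ptcra+ cells, against 3 in Trac+ cells and 0 in Trdc-high cells against cells with neither gene.

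No member was called higher at a step from Il2ra+Ptcra- to Il2ra+Ptcra+, Ptcra+Il2ra- and Cd8b1+ cells. Between Il2ra+Ptcra+ and Il2ra+Ptcra- cells, Cd69 was the member called, and it was lower in Il2ra+Ptcra+ cells, where 1.99% of 12502 genes were called lower and 3.62% in either direction. Cd69 was at 25.8, 74.9 and 215 CPM in Il2ra+Ptcra- cells and 15.4, 51.4 and 107 CPM in Il2ra+Ptcra+ cells, lower in each run (log2 fold change -0.77 ± 0.20, SE, 3 runs, edgeR adjusted p = 0.033). DESeq2 called no member, and the Cd69 call was lost without run 2 and without run 3. The other 6 members had log2 fold changes between -1.28 (Egr3) and -0.56 (Nab2). Cd5 was at 10.4, 7.92 and 16.6 CPM in Il2ra+Ptcra- cells, above the Il2ra+Ptcra+ value of each run, and was called without run 1 (log2 fold change -1.29) but not with all runs (-0.90 ± 0.31, SE, 3 runs, edgeR adjusted p = 0.14). Of other receptor-signal genes, 2 of 24 were lower, the ERK phosphatase gene Dusp6 at -0.96 ± 0.26 and Dusp5 at -0.66 ± 0.12, and 3 of 14 immediate-early genes were lower (Ier3, Zfp36 and Ier2; SE, 3 runs, edgeR adjusted p for Dusp6 and Dusp5 = 0.036 and 0.0024). The myeloid or dendritic markers summed to 38.7, 110 and 114 CPM in Il2ra+Ptcra- cells and 32.5, 51.4 and 39.3 CPM in Il2ra+Ptcra+ cells, and their part in the Cd69 difference was not tested.

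Among cells with Ptcra but no Il2ra UMI no member was called. The sorts of runs 2 and 3 took no αβ-lineage cells past DN3, so run 1 alone sampled that step by its sort. Median depth was 6402, 4829 and 7444 UMIs in Ptcra+Il2ra- cells of runs 1, 2 and 3. It was 4776, 6865 and 8430 UMIs in Il2ra+Ptcra+ cells. The part of missed Il2ra UMIs in this gate was not tested. Between Ptcra+Il2ra- and Il2ra+Ptcra+ cells, 0% of the 12502 genes were called by edgeR and 0 by DESeq2, with 654 genes at an unadjusted p under 0.05. Cd5 was the member among them, at 10.9, 9.76 and 13.7 CPM in Ptcra+Il2ra- cells, higher in 3 of 3 runs (log2 fold change 0.93 ± 0.39, SE, 3 runs, edgeR adjusted p = 0.94). Between Cd8b1+ and Ptcra+Il2ra- cells 0.68% of the genes were called (85 by edgeR and 186 by DESeq2), with none of the 7 members among the edgeR calls. At an unadjusted p under 0.05 there were 1550 of the 12502 genes, of which 1 was a member, Cd69. Cd69 was at 4.23, 21.3 and 67 CPM in Cd8b1+ cells and 7.57, 45.8 and 115 CPM in Ptcra+Il2ra- cells, lower in 3 of 3 runs (log2 fold change -0.86 ± 0.26, SE, 3 runs, edgeR adjusted p = 0.14). The receptor-signal gene called there was Dusp5, at -0.68 ± 0.16 (SE, 3 runs, edgeR adjusted p = 0.046). Run 2 held 60 Cd8b1+ cells, which limits what could be detected for Egr2 and Egr3 (1 UMI each there).

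Within Il2ra+Ptcra+ cells, those with a UMI of Mki67 or Top2a, which mark dividing cells, had less Cd69. Cd69 was at 12.9, 43.7 and 102 CPM in cycling cells and 19.6, 67.7 and 118 CPM in the others, lower in each run (log2 fold change -0.36 ± 0.11, SE, 3 runs, edgeR adjusted p = 0.017). It was the single member called of 5 tested, where 19.7% of 10034 genes were called lower and 37.7% in either direction, so that a call was common in this comparison. The Cd69 call was lost with DESeq2, without run 1 and without run 2. Cd5 went the other way, at 9.55, 4.92 and 6.99 CPM in cycling cells and 7.01, 4.46 and 4.35 CPM in the others (log2 fold change 0.54 ± 0.23, SE, 3 runs, edgeR adjusted p = 0.082). Egr1 had a log2 fold change of -0.40 ± 0.16 (SE, 3 runs, edgeR adjusted p = 0.064). Of 20 other receptor-signal genes tested, 8 were lower in cycling cells, among them Cd27, Tnfaip3 and Dusp5, and 1 was higher, Id3, while 8 of 13 immediate-early genes were lower, among them Btg2, an antiproliferative factor, and Junb. Cycling cells had median depths of 8387, 9557.5 and 11648 UMIs, against 3372, 4738 and 7273 UMIs in the others.

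The order of the gates was steadiest for Cd5. Trac+ cells came first in each run, Trdc-high cells second and Il2ra+Ptcra+ cells last. In run 2 the second place was not separated from the third, cells with neither gene, since their 95% intervals overlapped. By the same measure the first place was separated in runs 2 and 3, and the last place in run 3 alone. Nab2 had Trac+ cells first in each run. Nr4a1 had Trdc-high cells first in runs 2 and 3 and second after the 27 Trac+ cells in run 1. Egr1 changed its order, with cells with neither gene next to last of 8 gates in run 1, first in run 2 and second in run 3 after the B-lineage cells. The B-lineage cells of run 3 were also first for Egr2, Egr3 and Cd69, at 15, 29.5 and 490 CPM, with Egr1 at 125 CPM in 372 cells.

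Levels over all cells differed between runs in ways that the sorts cannot be told apart from. Cd69 was at 13.4, 76.3 and 199 CPM and Egr1 at 6.48, 32.7 and 47.8 CPM in runs 1, 2 and 3. Nr4a1 was at 8.37, 14.7 and 30.2 CPM and Cd5 at 15, 17.4 and 37.6 CPM. Egr1 and Cd69 were lowest in run 1 in each of the 8 gates plotted. Fos had another order, at 10.2, 537 and 205 CPM, and the heat shock gene Hspa1a was at 24.3, 574 and 6.85 CPM, and tissue handling cannot be told apart from the run. Nab2 stood apart, at 7.96, 16 and 11.2 CPM.

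Across 24 sums of cells, each of a gate in a run, the 7 genes fell on different sides. The sums include the 372 B-lineage cells of run 3. That gate was first in run 3 for Egr1, Egr2, Egr3 and Cd69, but not for Cd5, Nab2 or Nr4a1. Its part in the values below was not tested. The gene with the profile most like that of Cd5 among 4795 genes was Izumo1r, which encodes folate receptor 4 (Pearson's r = 0.959), followed by Vps37b (0.953) and Arl6ip5 (0.945). Those most like Egr1 were Cst3 (0.903), Hip1r (0.884) and Fos (0.880). Cd5 was closer to Nab2 (r = 0.862) and Nr4a1 (0.765) than to Egr1 (0.381), and Egr1 was closer to Cd69 (0.828) and Egr2 (0.794). The sums share libraries, kits and depth within a run, so these values describe the profiles and carry no test.

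Detection of the members in the same cell was compared next. Each cell was thinned to 2000 UMIs, and the number of cells with UMIs of both genes was set against the number expected if the genes were detected independently within each run and gate. Egr1 and Egr3 were found together in 33 cells against 8.51 expected, a ratio of 3.88. Of these cells 32 were in run 3, so the ratio rested on 1 library. B-lineage cells made up 8 of the 33, and cells with neither Il2ra nor Ptcra, a mixed gate, made up 9. Egr1 and Egr2 were found together in 26 cells against 7.09 expected, a ratio of 3.67. These 2 genes gave the highest ratios with Egr1 among 10496 genes with at least 5 cells expected, of which the 95th percentile was 1.36. Egr2 and Egr3 shared 9 cells against 1.37 expected, all 9 in run 3.

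Nab2 and Nr4a1 were also found with the Egr genes. Nab2 and Egr2 shared 15 cells against 5.09 expected, a ratio of 2.95. It was the highest with Nab2 among 9478 genes with at least 5 cells expected. By run it was 9.94, 2.08 and 1.87 in runs 1, 2 and 3, the first from 6 cells. Egr3 was outside that ranking, and shared 11 cells with Nab2 against 3.53 expected, a ratio of 3.11. Egr1 and Nr4a1 shared 120 cells against 52.0 expected, with ratios of 9.58, 2.26 and 2.07 in runs 1, 2 and 3 (the first from 12 cells). Nr4a1 and Nab2 shared 45 cells against 24.3 expected, a ratio of 1.85, with 5.22, 1.87 and 1.25 in runs 1, 2 and 3. Egr1 and Nab2 shared 66 cells against 39.4 expected, with ratios of 4.62, 1.43 and 1.73 in these runs. In run 3 the ratio of Nr4a1 with Nab2 lay below that of Cd5 with Nab2, 1.31. Within Trdc-high cells alone, Egr1 and Nr4a1 shared 39 cells against 16.3 expected, and within Il2ra+Ptcra- cells 31 against 11.6. Within Il2ra+Ptcra+ cells, where both genes were low, they shared 2 cells, a ratio of 0.952, so that no excess was seen there at these counts.

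Over the 3 runs together, Cd5 was found with Egr1, Egr2 and Cd69 about as often as independence gave, and run 1 stood apart. Cd5 and Egr1 shared 78 cells against 70.5 expected (ratio 1.11), Cd5 and Cd69 shared 217 against 211 (1.03), and Cd5 and Egr2 shared 9 against 8.95 (1.01). With Nab2 the ratio was 1.30 (75 cells) and with Nr4a1 1.25 (72 cells), beside a 95th percentile of 1.30 over 10365 genes. In run 1 the ratios with Cd5 were 2.27 for Egr1, 3.03 for Nr4a1, 2.40 for Nab2 and 2.14 for Cd69, from 6, 10, 11 and 14 cells. In runs 2 and 3 they were 0.836 and 1.20 for Egr1, 1.23 and 1.12 for Nr4a1, 1.13 and 1.31 for Nab2 and 59 cells against 58.8 expected and 144 against 146 for Cd69. Some genes of the receptor-signal list gave higher ratios with Cd5, among them Irf4 1.84, Tnfrsf9 1.72, Cd6 1.52 (229 cells against 151 expected) and Id3 1.43. Fos and Ier3 of the immediate-early list gave 0.885 and 0.711. The genes named are examples and do not stand for either list. Cd69 was found with Egr1 in 378 cells against 239 expected (1.58), with Nr4a1 in 210 against 168 (1.25) and with Nab2 in 97 against 102 (0.951).

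**Figure D4:**
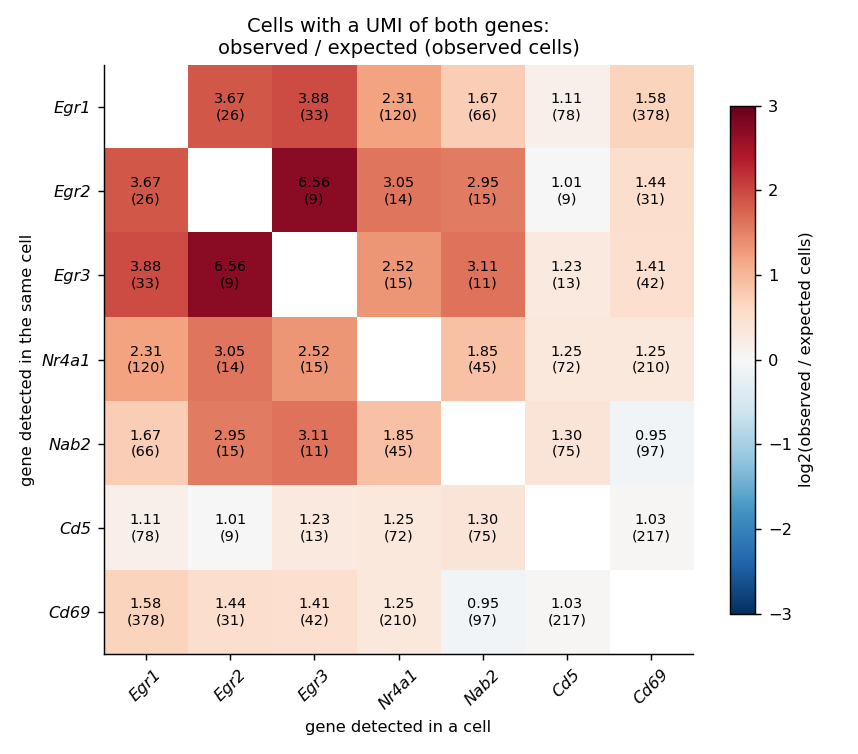
Observed over expected number of cells with UMIs of both genes of each pair (colour, log2 scale), summed over the 3 runs, with the ratio and the observed cells printed. The Egr genes, Nr4a1 and Nab2 have ratios of 1.67 to 6.56 with one another, and Cd5 has ratios of 1.01 to 1.30 with the other 6. The sums hide differences between runs, such as 5.22, 1.87 and 1.25 for Nr4a1 with Nab2 in runs 1, 2 and 3.

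The number of members per cell also differed between gates. After thinning, 4.19%, 5.92% and 14% of Trdc-high cells in runs 1, 2 and 3 carried UMIs of at least 2 members, against 0.331%, 1.39% and 2.22% of Il2ra+Ptcra+ cells. The 95% binomial intervals of these shares did not overlap within any run. Among Trac+ cells the shares were 6.28% and 11.9% in runs 2 and 3, and 14.8% of 27 cells in run 1. Among cells with neither Il2ra nor Ptcra they were 1.24%, 5.66% and 12.6%, and among Il2ra+Ptcra- cells 1.2%, 2.75% and 7.68%. In run 3 the B-lineage cells had the highest share of the gates, 17% of 370 cells. Within Trdc-high cells, those without Cd24a UMIs had 7.36%, 9.68% and 13.1%, and those with them 3.11%, 4.42% and 14.9%, so that the order turned in run 3. Cells with UMIs of both Egr1 and Cd5 at full depth numbered 49, 111 and 460, of which 28.6%, 19.8% and 22.8% were Trdc-high, while Trdc-high cells made up 11.7%, 17.2% and 13.5% of all cells. Trac+ cells held 0%, 36.9% and 23.7% of the cells with both genes and Il2ra+Ptcra- cells 14.3%, 21.6% and 22.8%, and made up 0.489%, 22.1% and 13.6% and 16.6%, 24.2% and 25.3% of all cells. Il2ra+Ptcra+ cells held 12.2%, 2.7% and 3.91% and made up 16.4%, 12.2% and 23.4% of all cells. Cd8b1+ cells held 22.4%, 0% and 1.96% and made up 24.1%, 0.678% and 1.54%. Depth differed between the gates, and its part in these full-depth counts was not tested.

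**Figure D5:**
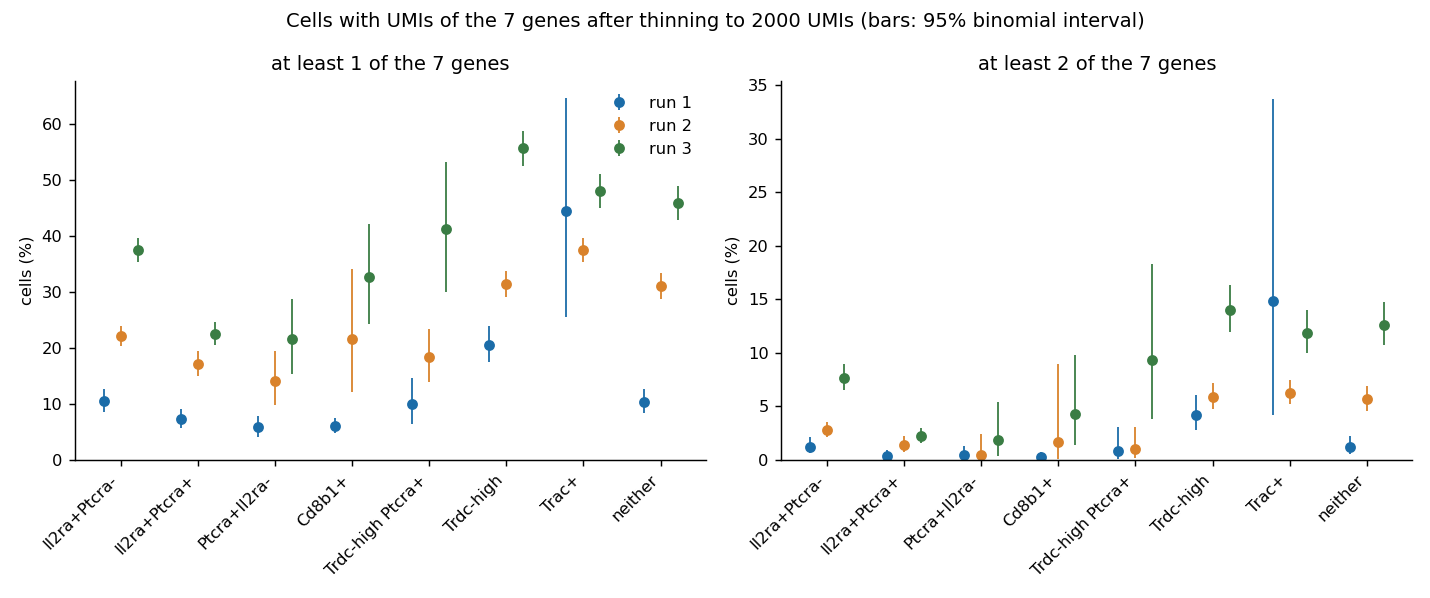
Share of cells (%, vertical axis) with UMIs of at least 1 (left) or at least 2 (right) of the 7 genes by gate and run, after thinning to 2000 UMIs, with 95% binomial intervals. B-lineage cells are not drawn. At least 2 genes were found in 4.19%, 5.92% and 14% of Trdc-high cells, against 0.331%, 1.39% and 2.22% of Il2ra+Ptcra+ cells.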

How the data were processed

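Per the labels, thymocytes of C57BL/6 mice were sequenced with 10x Genomics kits. The authors made raw UMI count matrices with Cell Ranger on mm10, and the submitters' processing notes also name R 3.6.3 and Seurat 2.3. The deposited values are whole UMI counts per gene and cell. The kit was V2 or V3.1, and which run used which is not given in the sources used here. The total was 39947415, 52797915 and 98533329 UMIs in runs 1, 2 and 3.

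A cell was kept if it had between 500 and 5000 detected genes and no more than 7% of its UMIs from mitochondrial genes. This left more cells in run 1 and fewer in run 3 than the study states. Doublets were not removed, and an alternative left out the 700, 750 and 750 cells of highest Scrublet score (Scrublet's own threshold called 0, 419 and 215). The gates were a UMI for Il2ra, Ptcra or Cd8b1, at least 3 UMIs for Trac, and at least 3 UMIs and 1000 CPM for Trdc. Each cell was placed once, with B-lineage, Trdc, Cd8b1 and Trac gates read in that order before Il2ra and Ptcra.

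Counts were summed per run and gate of at least 20 cells (25 sums) and fitted with edgeR 4.0.16 (quasi-likelihood, TMM scaling, filterByExpr) with run as a block, with p-values adjusted over all genes tested. The genes of the gates were not tested. The Cd24a and cycling comparisons used 6 sums each and 2 residual degrees of freedom, the others 14. The 3 libraries are not replicates of a condition. The p-values set a within-run difference against the variation left between sums, pooled over all gates of the fit and moderated over genes. They do not measure the spread of that difference alone over the 3 libraries. Each edgeR SE was worked back from the log2 fold change and the F statistic, so the same limit holds for it. DESeq2 1.42.0 was an alternative. Levels are CPM of the sums with exact Poisson intervals, and shares are of cells thinned to 2000 UMIs with exact Clopper-Pearson intervals, at 95%. Both cover counting error only. The profile comparison used log2(CPM + 10). Python 3.11.15, scanpy 1.11.5 and scipy 1.17.1 were used. The fit was tested on simulated counts with known changes. For Trdc-high against Il2ra+Ptcra+ cells, 16 of 141 edgeR calls were false, for Cd24a 3 of 119 and for cycling 17 of 186. Of changes of 1.5-fold, edgeR found 14 of 53, 8 of 52 and 41 of 58 in these comparisons. The gates, thinning and co-detection were not simulated.

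The 7 genes, the lists and the gates were chosen with earlier results of these data known. Members were all described. The other list genes named were those called with the largest changes, up to 4 of a list in a comparison.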

Additional observations from a re-analysis of the deposited data

Results flagged for a closer look

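Egr1 moved in opposite directions between runs when Trdc-high cells were set against cells with neither Il2ra nor Ptcra. The log2 ratio was 1.27 in run 1, -0.50 in run 2 and -1.01 in run 3. Nr4a1 did so when Trac+ cells were set against the same cells, with a log2 ratio of 3.40 in run 1, from 24 UMIs in 27 cells, and -0.98 in run 3. In these comparisons the 95% intervals of the gates lay apart within each run named. The differences between runs were not tested, since each sort has 1 library.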

How the results depend on the processing

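Each difference was taken within a run and fitted over the 3 runs, which are different sorts. The tests were repeated in 13 other ways: 11 planned and 2 added after seeing the data (a Trac gate of 1 UMI, and cells with neither gene without Trdc or Trac UMIs). Of 1336 gene tests so repeated, 1101 kept their direction and side of the threshold, 177 lost a call, 21 gained one and 37 changed sign. With 1 library per sort and 3 in all, leaving out 1 run leaves few degrees of freedom. Depth limits Egr2, which had 44 UMIs in run 1. Shares of cells with a UMI follow the thinning depth by construction. Where no cause is named below, the cause was not tested.

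With no replicate block (run not in the fit), the members called were 3 for Trdc-high against Il2ra+Ptcra+ and 0 for Il2ra+Ptcra+ against Il2ra+Ptcra-, for Trac+, for Cd24a and for cycling. The genes called in these 5 comparisons were then 80, 0, 3, 0 and 62, and 0 for Cd8b1+ and for Trdc-high against neither. The block is the run, which is shared by the gates that came from 1 library.

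Genes called when each run was left out in turn ranged from 48 to 736 for Il2ra+Ptcra+ against Il2ra+Ptcra-, 0 to 2 for Ptcra+Il2ra- against Il2ra+Ptcra+, 0 to 303 for Cd8b1+ against Ptcra+Il2ra-, 54 to 1114 for Trdc-high against neither, 213 to 3173 for Trdc-high against Il2ra+Ptcra+, 0 to 12 for Trdc-high Ptcra+ against Il2ra+Ptcra+, 161 to 2808 for Trac+ against neither, 356 to 1325 for Cd24a+ against Cd24a- and 2257 to 2963 for cycling. Members called ranged from 0 to 4 for Il2ra+Ptcra+ against Il2ra+Ptcra-, 0 to 1 for Trdc-high against neither, 3 to 7 for Trdc-high against Il2ra+Ptcra+, 0 to 6 for Trac+, 0 to 2 for Cd24a and 0 to 1 for cycling. The highest counts were without run 1 for the first of these, for Trdc-high against neither and for Trac+.

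DESeq2 called 186 genes for Cd8b1+, 15 for Trdc-high Ptcra+, 823 for Cd24a and 1920 for cycling, with 1 member for Trdc-high Ptcra+ and 0 for Il2ra+Ptcra+ against Il2ra+Ptcra- and for cycling. Gates set on thinned cells, which hold fewer UMIs, gave 331 genes for Cd8b1+, 1590 for Trdc-high against Il2ra+Ptcra+, 5360 for Trac+, 2161 for Cd24a and 1681 for cycling, with 2 members for Il2ra+Ptcra+ against Il2ra+Ptcra-, 1 for Trdc-high against neither and 0 for cycling. A Trdc gate of 2000 CPM gave 1458 genes for Trdc-high against neither, 4074 against Il2ra+Ptcra+, 2 for Trdc-high Ptcra+ and 131 for Cd24a, with 2 members for Il2ra+Ptcra+ against Il2ra+Ptcra- and 0 for Cd24a. Without high Scrublet scores, 132 genes were called for Cd8b1+, with 0 members for Cd24a and 2 for cycling. The added Trac gate gave 192 genes for Cd8b1+, 412 for Trdc-high against neither (1 member, Cd5) and 1305 for Trac+. The added gate without Trdc or Trac UMIs gave 1085 genes and 2 members, Egr1 and Cd5.

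The 37 changes of sign all concerned members that were not called in that comparison. For Ptcra+Il2ra- against Il2ra+Ptcra+, Egr1 went to 0.01 with RLE scaling, 0.10 without run 2, 0.02 with a 5% mitochondrial limit and 0.00 with the added Trac gate, Egr2 to 0.53 with thinned gates, and Egr3 to -0.19 without high Scrublet scores, -0.19 without the block and -0.13 with the added Trac gate. For Cd8b1+, Egr2 went to -0.68 without high Scrublet scores and -2.02 with thinned gates, Egr3 to -0.06 without run 2, -0.11 with the 5% limit and -2.75 with thinned gates, and Nab2 to -0.13 without run 3 (over the runs left out, Egr3 from -0.06 to 0.54 and Nab2 from -0.13 to 1.35). For Trdc-high against neither, Egr3 went to 0.07 with thinned gates and 0.05 with the 2000 CPM gate, Nab2 to -0.20 and Cd69 to -0.01 without run 1 (up to 0.72 and 0.49 without another run), and Cd69 to -0.39 with the added gate without Trdc or Trac. For Trdc-high Ptcra+, thinned gates gave Egr2 -5.24, Egr3 2.59, Nr4a1 -1.50 and Cd69 -0.20, the 2000 CPM gate gave Egr2 -5.20 and Egr3 0.98, DESeq2 gave Egr3 1.36, and Nab2 was -0.39 without run 1 and up to 1.35 without another run. For Trac+, Egr1 was 0.12 without run 3 (-0.52 without run 1), Nr4a1 1.06 with DESeq2, 0.22 without run 2, 0.78 without run 3 (-0.60 without run 1) and 0.63 without the block, and Cd69 0.01 with thinned gates. For Cd24a, Egr1 was 0.08 without run 2 (-0.71 without run 3), and the 2000 CPM gate gave Egr1 0.18 and Nr4a1 0.17. For cycling, Nr4a1 was 0.06 without run 2 (-0.28 without run 3).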
